A study of Homo sapiens with 12 samples.

Results

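This report describes 7 genes of plasminogen activation and of the tissue factor pathway in A549 cells: SERPINE2, PLAU, PLAUR, PLAT, TFPI, TFPI2 and F3. They were chosen by symbol out of 20323 genes in the count table. Each symbol stood at 1 identifier, so the rule for symbols with several, the highest total count, decided nothing. The names were put forward with results of these data known, so the counts of changed genes below are a description of these 7 and carry no test over them. All 7 passed the low-count filter, as did 12718 genes in total.

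A549 is an established human lung adenocarcinoma line, widely described as lacking functional LKB1, the kinase encoded by STK11. RNA sequencing was done on 4 groups of 3 libraries. These were LKB1-deficient cells (titled con) pretreated with high-dose AA, LKB1-deficient cells pretreated with PBS, cells with the genotype label WT pretreated with high-dose AA, and WT cells pretreated with PBS. Since the design text speaks of deficient or intact LKB1, the WT cells are called LKB1-intact, and the titles call AA vitamin C (ascorbate). All groups share the A549 background. The sources used here give neither the origin of each genotype, nor whether each is 1 clone, nor the dose of AA and the exposure time. Separate cultures are not mentioned for the 3 libraries of a group, and every p-value below therefore rests on a spread between libraries that could be technical.

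Plasminogen is turned into plasmin, a protease that dissolves fibrin and cuts matrix proteins, by the urokinase-type activator, encoded by PLAU, and the tissue-type activator, encoded by PLAT. Urokinase acts at the cell surface when bound to its receptor, encoded by PLAUR, and serpins such as the product of SERPINE2, which also traps thrombin, block it by forming a covalent complex. Tissue factor, encoded by F3, starts blood coagulation by binding factor VIIa. The Kunitz-type inhibitor encoded by TFPI blocks that complex, and its relative encoded by TFPI2 inhibits plasmin and other serine proteases. Carcinoma cells commonly express several of these genes.

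The RefSeq start regions of the 4 genes whose AA effect differed between the genotypes are shown first. Each line holds the 250 bases before the annotated start (RefSeq, GRCh38.p14), on the gene's own strand, with motif matches in capitals. The positions are chr2:224031479-224031728 on the minus strand for SERPINE2, chr10:73910360-73910609 on the plus strand for PLAU, chr19:43670170-43670419 on the minus strand for PLAUR and chr1:94541760-94542009 on the minus strand for F3. All 4 windows lie partly or wholly inside the gene as GENCODE release 29 draws it, since that annotation has starts further upstream.
SERPINE2: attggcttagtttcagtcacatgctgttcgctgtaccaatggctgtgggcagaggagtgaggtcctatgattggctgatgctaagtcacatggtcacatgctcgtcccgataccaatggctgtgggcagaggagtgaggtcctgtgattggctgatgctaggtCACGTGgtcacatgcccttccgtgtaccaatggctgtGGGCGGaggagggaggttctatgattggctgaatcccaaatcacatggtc
PLAU: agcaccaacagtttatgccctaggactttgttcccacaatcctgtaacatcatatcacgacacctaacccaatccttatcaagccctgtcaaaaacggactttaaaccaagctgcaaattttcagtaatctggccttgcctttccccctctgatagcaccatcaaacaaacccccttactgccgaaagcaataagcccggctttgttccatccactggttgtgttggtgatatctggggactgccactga
PLAUR: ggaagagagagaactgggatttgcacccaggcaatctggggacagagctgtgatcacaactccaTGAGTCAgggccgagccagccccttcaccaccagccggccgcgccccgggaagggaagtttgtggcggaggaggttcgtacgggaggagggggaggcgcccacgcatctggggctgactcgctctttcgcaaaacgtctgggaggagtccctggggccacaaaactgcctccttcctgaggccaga
F3: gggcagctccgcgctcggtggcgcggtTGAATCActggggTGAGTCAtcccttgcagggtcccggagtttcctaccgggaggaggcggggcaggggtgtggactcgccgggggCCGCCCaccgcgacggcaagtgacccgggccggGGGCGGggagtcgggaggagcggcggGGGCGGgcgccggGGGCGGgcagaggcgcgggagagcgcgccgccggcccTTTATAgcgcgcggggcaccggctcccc

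Motifs were searched on both strands over these 250 bases and the 50 that follow, and their share was taken over 35116 RefSeq windows of the same length. The AP-1 motif was spelled TGANTCA and stood in 7.71% of windows. The cyclic AMP response element was spelled TGACGTCA and stood in 1.85%. The GC box was spelled GGGCGG and stood in 45.0%. The TATA box was spelled TATAAA and stood in 11.5%, and the E-box was spelled CACGTG and stood in 7.26%. F3 had 2 AP-1 matches, 4 GC boxes and 1 TATA box, and its window was 78.0% G or C. PLAUR had 1 AP-1 match, TFPI2 had 1 AP-1 match and 2 GC boxes, and SERPINE2 had 1 GC box and 1 E-box. PLAU and TFPI had none of these letters in the window. The TFPI window lies wholly inside the gene as GENCODE release 29 draws it, and the start given there was not searched. PLAT was not searched, so the matches cover 6 of the 7 genes. No matches overlapped. A match is a string of letters and not a shown binding site. In the 1 window searched for each gene, SERPINE2 and PLAU, the 2 genes with the largest AA effects, did not share a motif. The GENCODE release 29 starts of both genes lie upstream of these windows and were not searched.

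Library totals lay between 16055534 and 20306129 estimated counts. STK11, the check of the genotype label, had 6.64 ± 0.91 CPM in deficient cells under AA and in intact cells 26.0 ± 2.0 CPM (SD, n = 3 each), both under AA, with no overlap between the genotypes. CPM is the count scaled to a fixed library total, after TMM scaling has adjusted that total for differences in library make-up. Of 6 epithelial markers, 5 were tested, led by KRT8, KRT18 and KRT7. The others were far lower, with EPCAM at 6.38 to 11.3 CPM, CDH1 at 0.735 to 2.43 and the untested KRT19 at 0.0541 to 0.5. The summed epithelial level ran from 2520 to 2600 CPM in deficient cells under AA, from 2490 to 2730 in deficient cells under PBS, from 3900 to 4040 in intact cells under AA and from 2780 to 2890 in intact cells under PBS. Among markers of other cell types, 1 of 5 endothelial, 2 of 5 fibroblast and 1 of 5 leukocyte genes were tested. The tested endothelial gene was CDH5, at 0.719 to 10.6 CPM, while KDR and CD3E were at 0 in all 12 libraries. In deficient cells the endothelial sum, mostly CDH5, ran from 0.815 to 1.78 CPM under AA and from 6.56 to 9.22 under PBS. In intact cells it ran from 3.21 to 4.5 CPM under AA and from 9.19 to 10.7 under PBS. The leukocyte sum, mostly ITGB2, ran from 11.9 to 13.1 CPM, 6.86 to 9.6 CPM, 15.3 to 17.4 CPM and 8.81 to 9.72 CPM in the same order of groups, and the fibroblast sum, mostly COL1A1, from 11.3 to 12.4, 12.5 to 13.3, 16.3 to 17.0 and 12.3 to 14.3 CPM. Mitochondrially encoded genes took 2.53 to 2.62% of counts in deficient cells under AA, 5.07 to 5.36% in deficient cells under PBS, 3.61 to 3.72% in intact cells under AA and 5.16 to 5.33% in intact cells under PBS. The part of these shifts in the results below was not tested.

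In LKB1-deficient cells, AA raised the urokinase gene PLAU and the serpin gene SERPINE2 several-fold, raised the urokinase receptor gene PLAUR and the tissue factor inhibitor gene TFPI more modestly, and lowered F3 and TFPI2. In LKB1-intact cells, TFPI rose and F3 and TFPI2 fell as well, while PLAU was not called and SERPINE2 fell slightly. That SERPINE2 call was lost when some single libraries were left out. Under PBS the genotypes differed in none of the 7 past the threshold. In bulk RNA a change in the share of cells that express a gene and a change in RNA per cell cannot be told apart. Calls were made with edgeR's quasi-likelihood test, where the p adjusted over all tested genes (Benjamini-Hochberg) fell under 0.05. In deficient cells 4 of the 7 were called up and 2 down, where 37.0% of all tested genes were called up and 37.4% down (74.4% in all). In intact cells 2 were called up and 3 down, where 34.5% of all tested genes were called up and 35.2% down (69.8% in all). These shares are not far from the background of a treatment that changed most genes, so the sizes and directions of single genes carry more than the counts.

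**Figure D1:**
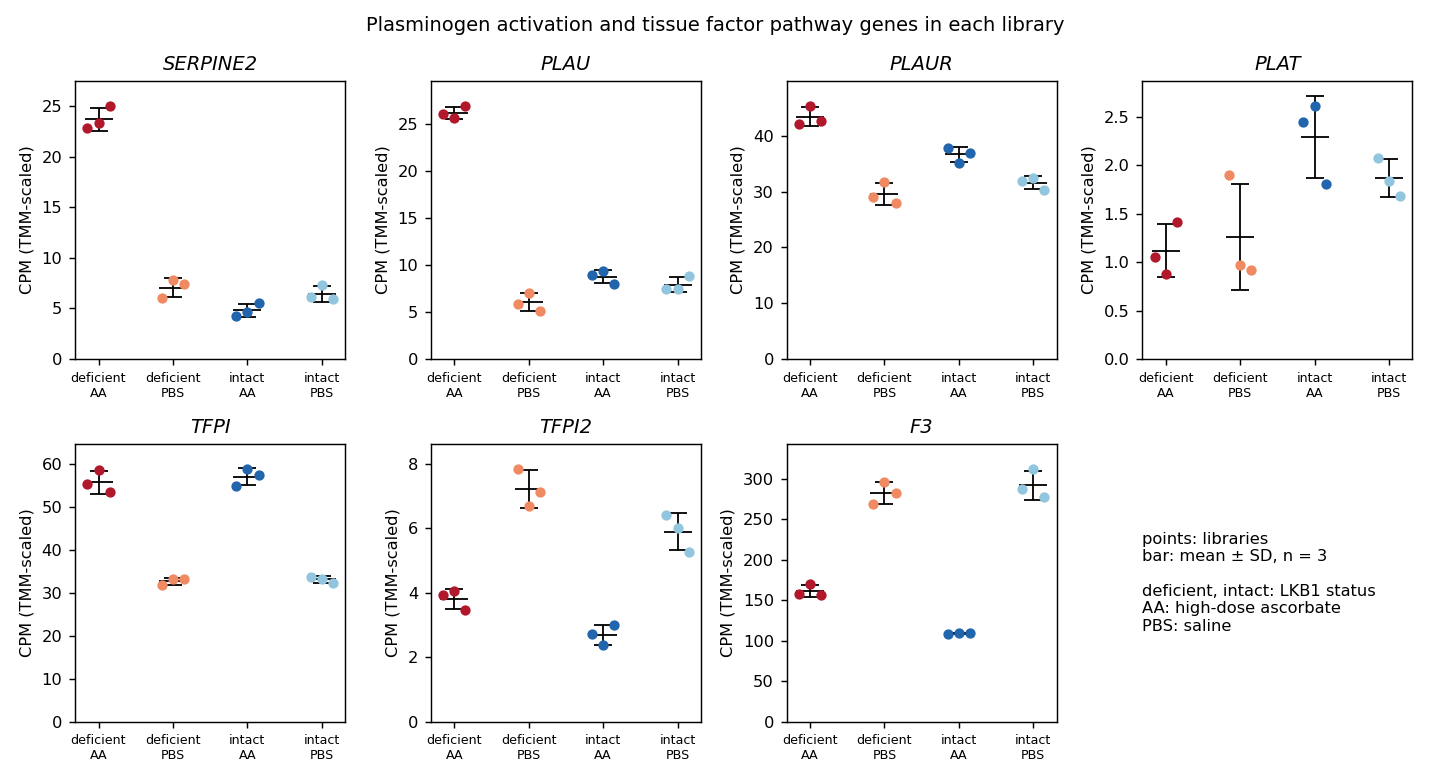
Level of each gene in each of the 12 libraries, in CPM (vertical axes from 0), by group. Points are libraries and the black bar is the mean ± SD of 3; PLAU and SERPINE2 stand apart at 22.9 to 26.9 CPM in LKB1-deficient cells under AA, against at most 9.39 CPM in every other library.

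PLAU (ENSG00000122861; chromosome 10, 73909177 to 73917497, plus strand in GRCh38, GENCODE release 29) encodes urokinase, the activator bound at the cell surface. Its level was 26.1, 25.7 and 26.9 CPM in deficient cells under AA, against 5.88, 7.05 and 5.16 CPM in deficient cells under PBS. The groups were far apart, and the lowest AA library lay above every other library of the study. In intact cells the level was 8.94, 9.39 and 7.97 CPM under AA, against 7.42, 7.46 and 8.82 CPM under PBS, and these groups overlapped. The change was 4.34-fold in deficient cells (log2 2.12, SE 0.108, edgeR adjusted p = 1.06e-13), and 1.23% of all tested genes rose more there. In intact cells the log2 change was 0.15 (95% interval -0.09 to 0.39, edgeR adjusted p = 0.263). The AA effect differed between the genotypes by 1.97 on the log2 scale (SE 0.159, edgeR adjusted p = 1.91e-09). PLAU shares its locus with an opposite-strand gene, C10orf55, and the sources used here do not say whether counting used strand.

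SERPINE2 (ENSG00000135919; chromosome 2, 223975112 to 224039319, minus strand) encodes a serpin that inhibits urokinase, tissue-type plasminogen activator and thrombin. It had 22.9, 23.3 and 25.0 CPM in deficient cells under AA, against 6.01, 7.77 and 7.44 CPM in deficient cells under PBS. Intact cells had 4.25, 4.67 and 5.53 CPM under AA, against 6.1, 7.35 and 5.9 CPM under PBS. The gene was thus highest in deficient and lowest in intact cells under AA, with the PBS groups between them and overlapping each other. AA changed it 3.35-fold in deficient cells (log2 1.75, SE 0.114, edgeR adjusted p = 7.33e-12), and it fell by 0.42 on the log2 scale in intact cells (SE 0.138, edgeR adjusted p = 0.00987). The fall in intact cells was no longer called without intact PBS replicate 2 (log2 -0.31, edgeR adjusted p = 0.0726) or without intact AA replicate 1 (log2 -0.34, edgeR adjusted p = 0.0534). The difference in AA effect was 2.17 on the log2 scale (SE 0.179, edgeR adjusted p = 2.72e-09), and 0.338% of all tested genes had a larger positive difference. The urokinase gene and this inhibitor gene of urokinase therefore rose together in deficient cells under AA.

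PLAUR (ENSG00000011422; chromosome 19, 43646095 to 43670547, minus strand) encodes the membrane-anchored urokinase receptor. It stood at 42.1, 45.3 and 42.7 CPM in deficient cells under AA, against 29, 31.8 and 27.9 CPM in deficient cells under PBS. In intact cells it stood at 37.9, 35.2 and 37.0 CPM under AA, against 32.0, 32.5 and 30.3 CPM under PBS. No AA library overlapped a PBS library in either genotype. The rise was 1.47-fold in deficient cells (log2 0.55, SE 0.061, edgeR adjusted p = 4.01e-08) and 1.16-fold in intact cells (log2 0.21, SE 0.0612, edgeR adjusted p = 0.00377). Short transcripts rose on average under AA in these libraries, by 0.33 log2 in deficient and 0.23 log2 in intact cells at the length of PLAUR. With that trend removed the rise in deficient cells stayed called at 0.22 log2 (adjusted p = 0.00289, from the edgeR standard errors), while the change in intact cells was -0.01 (adjusted p = 0.855). The effect was larger in deficient cells by 0.34 log2 (SE 0.0865, edgeR adjusted p = 0.00305). RN7SL368P, a same-strand gene of the type misc_RNA, overlaps PLAUR in GENCODE release 29, and its part in the PLAUR counts was not tested.

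PLAT (ENSG00000104368; chromosome 8, 42175233 to 42207724, minus strand), the tissue-type activator gene, was the least abundant of the 7, with 15 to 47 counts per library. It had 1.05, 0.876 and 1.42 CPM in deficient cells under AA, against 1.9, 0.972 and 0.922 CPM in deficient cells under PBS. Intact cells had 2.45, 2.61 and 1.81 CPM under AA, against 2.08, 1.84 and 1.68 CPM under PBS. The AA and PBS groups overlapped in both genotypes. At this depth no AA effect was detectable: the log2 change was -0.18 in deficient cells (95% interval -0.87 to 0.52, edgeR adjusted p = 0.639) and 0.30 in intact cells (95% interval -0.31 to 0.90, edgeR adjusted p = 0.373). Without deficient PBS replicate 1, the highest library of its group, the change in deficient cells was 0.23 (edgeR adjusted p = 0.576). Under AA the deficient cells lay below the intact cells without overlap (log2 -1.03, SE 0.305, edgeR adjusted p = 0.00623).

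F3 (ENSG00000117525; chromosome 1, 94529225 to 94541800, minus strand), which encodes tissue factor, was the most abundant of the 7. It had 158, 170 and 157 CPM in deficient cells under AA, against 269, 296 and 282 CPM in deficient cells under PBS. In intact cells it had 108, 110 and 109 CPM under AA, against 287, 312 and 277 CPM under PBS. The PBS groups overlapped, and the AA groups lay below them without overlap, the intact one lowest. F3 fell by 0.81 on the log2 scale in deficient cells (SE 0.0438, edgeR adjusted p = 3.32e-13) and by 1.43 in intact cells (SE 0.0453, edgeR adjusted p = 7.84e-17). The AA effect differed by 0.62 log2 (SE 0.0628, edgeR adjusted p = 5.92e-08), so the fall was shallower in deficient cells.

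TFPI (ENSG00000003436; chromosome 2, 187464230 to 187565760, minus strand) encodes the main inhibitor of the tissue factor complex. It rose to 55.2, 58.5 and 53.4 CPM in deficient cells under AA, against 31.8, 33.3 and 33.1 CPM under PBS, and to 54.9, 58.8 and 57.3 CPM in intact cells under AA, against 33.7, 33.2 and 32.2 CPM under PBS. Both AA groups overlapped each other, as did both PBS groups. The rise was 1.70-fold in deficient cells (log2 0.77, SE 0.0535, edgeR adjusted p = 2.31e-11) and 1.72-fold in intact cells (log2 0.79, SE 0.0531, edgeR adjusted p = 2.41e-11). With the length trend removed the rise was smaller, 0.55 log2 in deficient and 0.64 log2 in intact cells, and stayed called in both. The difference in AA effect was -0.02 log2, with a 95% interval of -0.18 to 0.14 (edgeR adjusted p = 0.852). TFPI2 (ENSG00000105825; chromosome 7, 93885396 to 93890991, minus strand), whose product inhibits plasmin, moved the other way.

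TFPI2 had 3.93, 4.05 and 3.46 CPM in deficient cells under AA, against 7.84, 6.68 and 7.13 CPM in deficient cells under PBS. Intact cells had 2.72, 2.39 and 3.0 CPM under AA, against 6.42, 6.0 and 5.28 CPM under PBS. In CPM none of the 4 groups overlapped, with deficient cells under PBS highest and intact cells under AA lowest. In FPKM, intact cells under AA (1.35 to 2.44) overlapped intact cells under PBS (2.36 to 3.11). Deficient cells under AA (1.67 to 2.7 FPKM) overlapped both, and deficient cells under PBS (3.44 to 4.42 FPKM) stayed above. The gene fell by 0.92 log2 in deficient cells (SE 0.152, edgeR adjusted p = 1.29e-05) and by 1.12 log2 in intact cells (SE 0.163, edgeR adjusted p = 3.06e-06). On deposited FPKM the change in intact cells was smaller, at -0.48 on the log2(FPKM + 1) scale and -0.68 on the log2(FPKM + 0.1) scale (limma adjusted p = 0.0178 and 0.0168), and the cause of the gap to the counts was not tested. The difference in AA effect was 0.20 log2 (95% interval -0.27 to 0.67, edgeR adjusted p = 0.498). Antisense genes overlap TFPI and TFPI2 in GENCODE release 29, and so does GNGT1 at TFPI2, which had 0 to 12 counts per library.

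**Figure D2:**
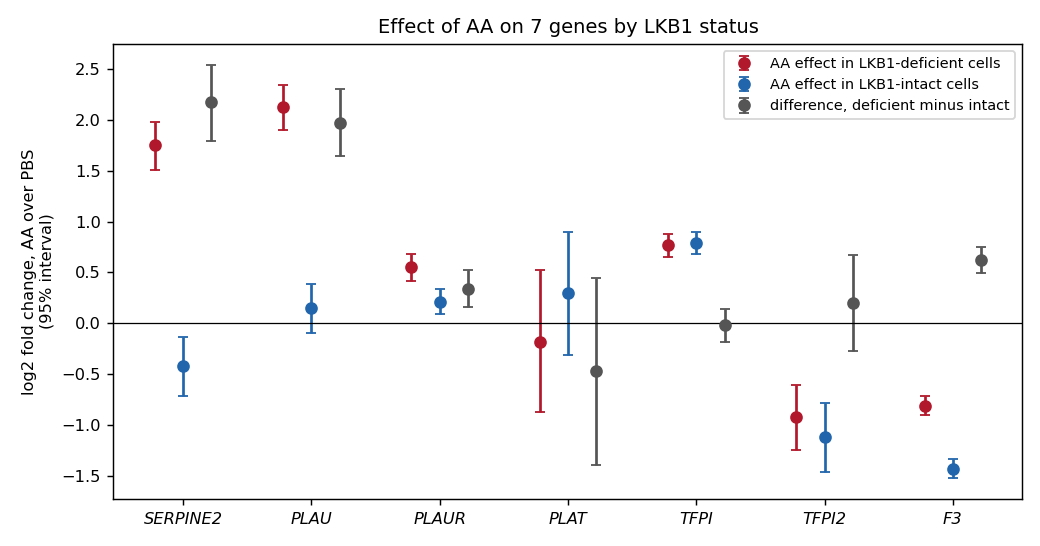
Log2 fold change of AA over PBS for each gene in LKB1-deficient cells, in LKB1-intact cells, and the difference between them (vertical axis, points with 95% intervals from the edgeR fit over 12 libraries). SERPINE2 and PLAU differ by 2.17 and 1.97 log2 between the genotypes, while the points of TFPI coincide.

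A direct comparison of the genotypes followed. Under AA, 6 of the 7 genes were called, 5 higher and 1 lower in deficient cells, where 28.7% of all tested genes were called higher and 30.3% lower (59.0% in all). These values share the AA libraries with the effects above. SERPINE2 stood at 4.91 times its level in intact cells (log2 SE 0.118, edgeR adjusted p = 3.98e-13) and PLAU at 3.00 times (log2 SE 0.0998, edgeR adjusted p = 1.17e-11). F3 stood at 1.48 times (log2 SE 0.0462, edgeR adjusted p = 7.22e-10) and PLAUR at 1.18 times the intact level (log2 SE 0.0585, edgeR adjusted p = 0.00133). TFPI2 was higher by 0.49 log2 (SE 0.169, edgeR adjusted p = 0.0162). That call was lost on FPKM values (limma adjusted p = 0.242 to 0.268), without intact AA replicate 2 (edgeR adjusted p = 0.0655) and at the stricter limit of 0.01. With the length trend removed the PLAUR difference was 0.14 log2 (adjusted p = 0.0455 from the edgeR standard error). PLAT was the gene called lower, with a difference of -0.48 on the log2(FPKM + 1) scale and -0.98 on the log2(FPKM + 0.1) scale, and TFPI was not called (log2 -0.03, 95% interval -0.14 to 0.07).

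Under PBS none of the 7 genes was called between deficient and intact cells by edgeR, DESeq2 or limma-voom, where 0.275% of all tested genes were called by edgeR. Before adjustment, 1 of the 7, PLAU, was under 0.05. Its log2 difference was -0.39 without overlap of the libraries, and it failed the correction (edgeR adjusted p = 0.294). The 95% intervals of this genotype difference ran from -0.13 to 0.11 log2 for TFPI, from -0.14 to 0.04 for F3, from -0.23 to 0.04 for PLAUR and from -0.15 to 0.40 for SERPINE2. They ran from -0.65 to -0.13 for PLAU, from -0.01 to 0.60 for TFPI2 and from -1.22 to 0.10 for PLAT. The difference in AA effect, deficient minus intact, was called in 4 of the 7 genes, all with a positive sign. For F3 that sign is a shallower fall in deficient cells. Of all tested genes, 21.6% were called with a positive and 23.0% with a negative difference (44.6% in all).

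Levels were compared between genes on the deposited FPKM scale, which divides by transcript length. In deficient cells under AA the order was F3 (74.4 ± 3.49 FPKM), PLAUR (33.4 ± 1.87), TFPI (32.8 ± 2.24), PLAU (12.1 ± 0.218), SERPINE2 (11.2 ± 0.777), TFPI2 (2.17 ± 0.52) and PLAT (0.50 ± 0.0632; SD, n = 3 each). PLAUR and TFPI overlapped there, as did PLAU and SERPINE2 within 10.7 to 12.3 FPKM. In intact cells under PBS the order was F3 (129 ± 7.99 FPKM), PLAUR (24.0 ± 0.665), TFPI (20.9 ± 1.4), PLAU (3.56 ± 0.205), SERPINE2 (2.86 ± 0.347), TFPI2 (2.78 ± 0.381) and PLAT (1.00 ± 0.0431; SD, n = 3 each). The receptor gene was thus more abundant per length than the urokinase gene in both groups, and the inhibitor genes SERPINE2 and TFPI2 could not be told apart in intact cells under PBS.

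**Figure D3:**
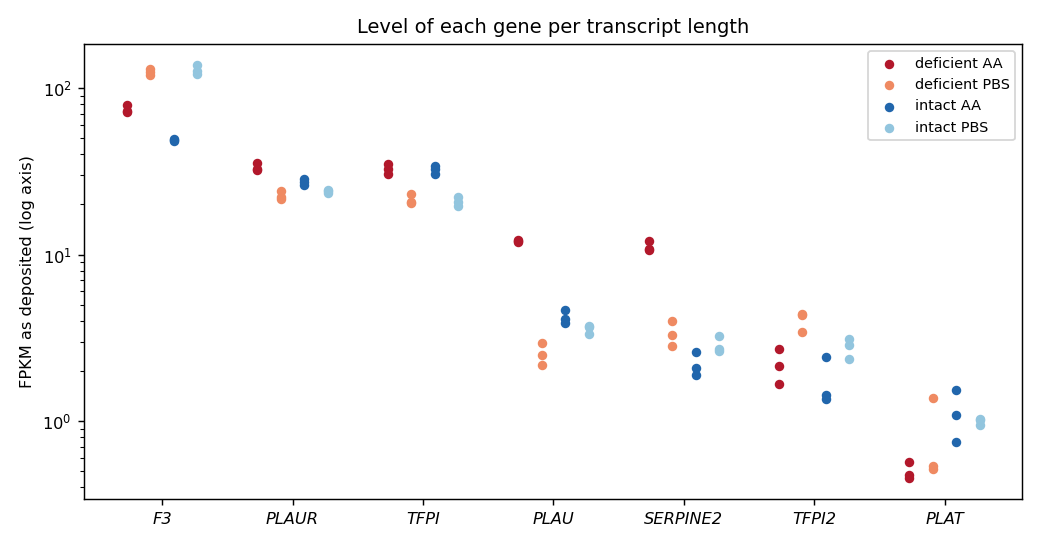
Deposited FPKM of the 7 genes in each library (logarithmic vertical axis), coloured by group. F3 has the highest and PLAT the lowest mean in every group, and PLAU and SERPINE2 reach 10.7 to 12.3 FPKM in LKB1-deficient cells under AA.

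The genes whose profile over the 4 groups was closest to those of the 3 widest-ranging members were found among 9688 genes with a mean log2 CPM of at least 3, by the root mean square difference of the centred group means of log2 CPM. For SERPINE2 they were DDIT3 (0.0744 log2), which encodes the stress transcription factor CHOP, and STC2 (0.0982 log2), which encodes a secreted glycoprotein. For PLAU they were SMOX (0.109 log2), encoding spermine oxidase, and CTH (0.135 log2), encoding an enzyme of cysteine synthesis. For F3 they were PABIR1 (0.047 log2) and the small MAF factor gene MAFG (0.0489 log2). The likeness rests on 4 group means a gene.

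Other genes of the plasminogen system were then counted, from a list of 25 of which 15 were tested. In deficient cells under AA, 7 were called up and 5 down (median log2 0.07, against 0.01 over all tested genes), where 37.0% of all tested genes were called up and 37.4% down. In intact cells 9 were called up and 3 down (median 0.19, against 0.01), where the shares of all tested genes were 34.5% and 35.2%. For the difference in AA effect, 4 were called higher and 7 lower in deficient cells (median -0.13, against -0.01), where the shares were 21.6% and 23.0%. With the length trend removed, these counts were 6 up and 6 down in deficient cells, 7 up and 3 down in intact cells, and 1 higher and 7 lower for the difference. PLG, plasminogen itself, was below the filter at a mean of 3.17 counts per library, as were SERPINB2 at 1.6 and MMP9 at 1.92. Under PBS none of the 15 was called between the genotypes by edgeR, with 1, LRP1, under 0.05 before adjustment.

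The genes for receptors that clear urokinase differed among themselves. VLDLR, an endocytic receptor for complexes of urokinase with serpins, averaged 42.1 ± 1.57 CPM under AA and 24.0 ± 2.04 CPM under PBS in deficient cells, and 18.5 ± 1.43 CPM under AA and 22.1 ± 1.47 CPM under PBS in intact cells (SD, n = 3 each; difference in AA effect 1.06 log2, edgeR adjusted p = 5.34e-08). With the length trend removed its change in intact cells, -0.26, was -0.12 and no longer called (adjusted p = 0.175). LRP1, another such receptor, averaged 46.5 ± 1.49 CPM under AA and 62.0 ± 5.98 CPM under PBS in deficient cells (log2 -0.42, edgeR adjusted p = 1.22e-06). In intact cells LRP1 had a log2 change of 0.12 (edgeR adjusted p = 0.0515), and the difference in AA effect was -0.54 log2 (edgeR adjusted p = 9.57e-06). The direction of LRP1, a long transcript, depended on the length trend: with the trend removed its change was 0.32 in deficient and 0.74 in intact cells (adjusted p = 3.92e-05 and 1.29e-10), and the difference was -0.35 (adjusted p = 0.000957). Both with and without that step, the difference in AA effect was thus positive for VLDLR (1.12 log2 with the trend removed) and negative for LRP1. MRC2, which encodes another surface receptor of the list, was not called for the difference (log2 -0.13, edgeR adjusted p = 0.232). PLGRKT, a plasminogen receptor, rose by 0.87 log2 in deficient cells (edgeR adjusted p = 0.000206), or 0.46 with the trend removed (adjusted p = 0.0287). S100A10 and ANXA2, which together bind plasminogen, had log2 changes of -0.12 and 0.12 in deficient cells, and of -0.57 and -0.19 with the trend removed, so the direction of ANXA2 turned.

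Among the protease genes of the list, ST14, MMP2 and MMP14 had a lower AA effect in deficient cells. ST14, which encodes matriptase, an activator of pro-urokinase, averaged 29.1 ± 0.68 CPM under AA and 33.8 ± 2.25 CPM under PBS in deficient cells, and 53.6 ± 2.82 CPM under AA and 33.8 ± 2.48 CPM under PBS in intact cells (SD, n = 3 each). The difference in its AA effect was -0.88 log2 (edgeR adjusted p = 9.78e-08). MMP2, a gelatinase, differed by -0.97 log2 (edgeR adjusted p = 0.00131) and MMP14, a membrane metalloproteinase that activates it, by -0.86 log2 (edgeR adjusted p = 4.38e-06). MMP14 fell by 0.64 log2 in deficient cells and rose by 0.22 log2 in intact cells. With the length trend removed these 3 differences stayed called, at -0.83, -0.96 and -0.81, while the change of ST14 in deficient cells alone, -0.21, was -0.07 and no longer called (adjusted p = 0.33).

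Of 24 other blood coagulation genes, 12 were tested. In deficient cells under AA 5 were called up and 4 down (median log2 0.02), where 37.0% of all tested genes were called up and 37.4% down. In intact cells 6 were called up and 4 down (median 0.24), against shares of 34.5% and 35.2%. For the difference in AA effect edgeR called 0 higher, with 0 also before adjustment, and 5 lower in deficient cells (median -0.13), against shares of 21.6% and 23.0%. With the length trend removed, the counts were 4 up and 3 down in deficient cells, 6 up and 1 down in intact cells, and 0 higher and 5 lower for the difference. F2RL2, a receptor cleaved by thrombin, averaged 2.61 ± 0.226 CPM under AA and 11.2 ± 0.572 CPM under PBS in deficient cells, and 7.34 ± 0.313 CPM under AA and 16.2 ± 0.738 CPM under PBS in intact cells (SD, n = 3 each). It was the 1 gene of this list called between the genotypes under PBS (log2 -0.53, edgeR adjusted p = 0.0191). That call was lost without any single one of the 6 PBS libraries. PROCR, the endothelial protein C receptor gene, rose by 0.46 log2 in deficient and 1.07 log2 in intact cells (difference -0.61, edgeR adjusted p = 0.000409). PROS1, encoding the protein C cofactor protein S, fell by 0.18 log2 in deficient cells and rose by 0.41 log2 in intact cells (difference -0.58, edgeR adjusted p = 4.45e-08). With the length trend removed both lost the call in deficient cells, PROCR at 0.14 (adjusted p = 0.158) and PROS1 at -0.03 (adjusted p = 0.515), while the differences stayed called at -0.70 and -0.53. F7 and F10, whose products act with tissue factor, were below the filter at 0.917 and 3.92 counts per library on average.

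**Figure D4:**
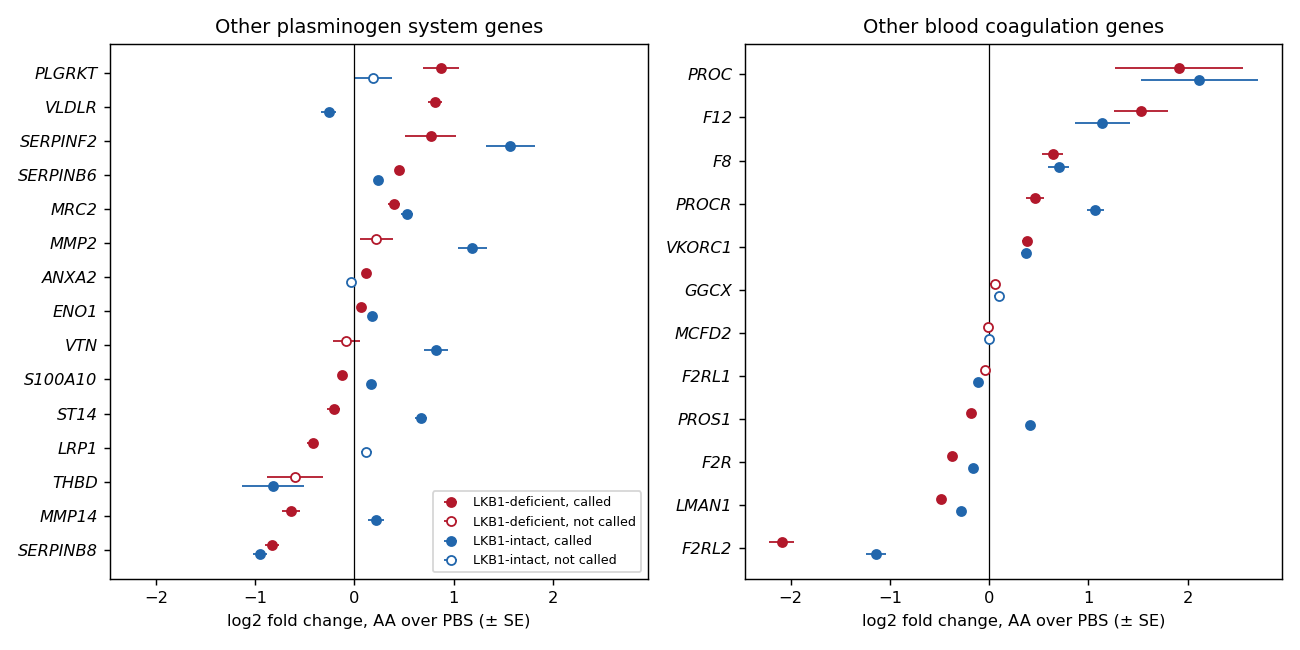
Log2 fold change of AA over PBS (horizontal axis, ± SE) for the tested genes of the plasminogen list (left) and the coagulation list (right), in LKB1-deficient and LKB1-intact cells. Filled points were called and open points were not; VLDLR lies to the right and ST14 to the left in deficient cells, with the intact points on the opposite side of 0.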

How the data were processed

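Bulk RNA sequencing of 12 A549 libraries was used; titles put 3 in each of 4 groups. The submitters' processing notes name RSEM, StringTie 1.3.1, HISAT2 2.1.0, Bowtie2 2.2.8 and fastp 0.18.0 without roles. Genome build and strand setting: not given in the sources used here. Tables deposited by the authors hold estimated counts, of which 10.9 to 11.5% of values per library are not whole, and FPKM values, which divide by length and depth. A count estimator shares reads among similar transcripts.

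Counts were rounded and filtered by group (minimum count 10), which left 12718 of 20323 genes and 99.97% of counts. edgeR 4.0.16 in R 4.3.3 fitted 1 quasi-likelihood model with TMM factors (0.987 to 1.033) and group as the only factor. The 5 comparisons were AA against PBS for both genotypes, the difference of these effects, and the genotypes under AA and under PBS. The standard error is the log2 change over the square root of F, and intervals are 95%. Positions are GENCODE release 29 on GRCh38, not matched to the authors' build.

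The genes, lists and tests were chosen with earlier results of these data known. Named genes were the 7, STK11, genes of the 2 lists, and the 2 nearest profiles of the 3 widest-ranging of the 7. A gene of the plasminogen list is not reported here and was left out of its counts. Alternatives were RLE, upper quartile or no factors, other filters (none, minimum 50), DESeq2 1.42.0, limma 3.58.1 (voom, and log2 FPKM with a pseudocount of 1 or 0.1 for genes at 1 FPKM or more in 3 libraries), a replicate block, the 6 libraries of a comparison, adjusted p under 0.01, removal of the trend on transcript length, and leaving out each library. On simulated counts (12475 genes) the steps recovered 98.5% of genes changed by 1 log2 and 52.2% of those changed by 0.5 log2 in deficient cells under AA against PBS. For the difference in AA effect they recovered 92.5% at 1 log2 and 8.96% at 0.5 log2. The simulated comparisons had 169 and 139 genes called, 2 and 5 of them falsely, against 9465 and 5673 called in these data. With so many fewer calls, the shares recovered there do not give the power in these data. Libraries within a group differed by more than sampling noise (chi-square over degrees of freedom 2.00 to 4.35).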

Additional observations from a re-analysis of the deposited data

Results flagged for a closer look

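The AA effect differed between LKB1-deficient and LKB1-intact cells in 4 of the 7 genes, by the test of the difference itself over 12 libraries (edgeR, adjusted over all tested genes). The difference, deficient minus intact, was 2.17 log2 for SERPINE2, 1.97 log2 for PLAU, 0.62 log2 for F3 and 0.34 log2 for PLAUR. SERPINE2 rose in deficient and fell in intact cells. Its fall was no longer called without intact PBS replicate 2 or without intact AA replicate 1. F3 fell in both genotypes. PLAUR rose in both, but with the length trend removed its change in intact cells was -0.01 (adjusted p = 0.855, from the edgeR standard errors). All 4 differences kept their sign and stayed past the threshold under each of the 24 alternatives run for them, with ranges of 1.76 to 2.28 log2 for SERPINE2, 1.70 to 2.1 for PLAU, 0.57 to 0.67 for F3 and 0.24 to 0.40 for PLAUR. For reference, 44.6% of all tested genes differed in this test.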

How the results depend on the processing

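Of 695 repeats of the 35 values of the 7 genes, 677 kept direction and call, 6 lost the call and 12 changed sign. The AA calls in deficient cells, 6 of the 7 genes, and the count of 4 for the difference in AA effect were the same with the replicate block, which changed no call of the 7 genes. No pairing by library number was detected: the correlation of deviations between same-numbered libraries ran from -0.094 to 0.054. Between differently numbered libraries of different groups it ran from -0.053 to 0.083. A weak pairing could be missed by this check over all tested genes. Sign changes other than that of PLAUR were of values that were not called. With library size only, TFPI gave 0.03 for the difference in AA effect and 0.02 for the genotypes under AA. On log2(FPKM + 1), TFPI gave 0.01 under AA and 0.04 under PBS, and TFPI2 -0.20 for the difference; with 0.1 in place of 1 these were 0.01, 0.05 and -0.21. Removing the length trend turned PLAUR in intact cells to -0.01. Without 1 library, PLAT in deficient cells ran from -0.38 to 0.23, TFPI between genotypes under PBS from -0.03 to 0.01, and the TFPI difference in AA effect from -0.06 to 0.01. PLAT has no value at a minimum count of 50.

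Under PBS, 35 genes differed between the genotypes, against 111 with no low-count filter, 54 by DESeq2, 5 on either FPKM scale, 5 at an adjusted p under 0.01, and 6 to 28 without 1 library. The plasminogen list had 0 called, against 1 with no filter and 0 to 1 without 1 library. The coagulation list had 1, against 0 on either FPKM scale, 0 at an adjusted p under 0.01 and 0 without any 1 library. The cause was not tested. Depth limits PLAT, with 15 to 47 counts per library.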

Other observations

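Ratios of deposited FPKM values within a library were taken after the values had been seen, and are given as values. The ratio of F3 to TFPI, the initiator of coagulation and its inhibitor, was 2.27 ± 0.0847 in deficient cells under AA and 5.8 ± 0.475 in deficient cells under PBS (SD, n = 3 each). In intact cells it was 1.5 ± 0.0798 under AA and 6.21 ± 0.744 under PBS (SD, n = 3 each). All 6 AA libraries, at 1.44 to 2.37, lay below all 6 PBS libraries, at 5.38 to 7.07. The ratio of PLAU to SERPINE2 was 1.08 ± 0.0556 in deficient cells under AA and 0.758 ± 0.111 in deficient cells under PBS, and 1.96 ± 0.416 under AA and 1.26 ± 0.211 under PBS in intact cells (SD, n = 3 each). In deficient cells the ratio was 1.02 to 1.13 under AA and 0.659 to 0.879 under PBS, without overlap. In intact cells it was 1.48 to 2.23 under AA and 1.02 to 1.42 under PBS, also without overlap. These are ratios of RNA levels, and no protein or protease activity was measured.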
